A study of Mus musculus with 12 samples.

Results

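Microexons are very short exons, here of 3 to 27 nt, that the spliceosome can join into an mRNA or pass over. In this series 228 such exons of 201 genes were measured as cassette exons, among 4552 cassette exons of 3 to 500 nt. They were chosen from the junction reads alone. A junction that skips the exon and the 2 junctions that join it to its neighbours each had to hold at least 20 reads, summed over the 8 libraries of the first experiment, on the same strand. The rule uses length and read numbers and no marker of neurons, and the reads come from whole tissue or mixed cultures, so whether a given inclusion read came from a neuron was not measured.

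In vertebrate nervous systems many microexons are switched on as neurons differentiate. They lie in genes for synapses, vesicle traffic, adhesion and the cytoskeleton, and most keep the reading frame, adding a few residues to the surface of a protein domain. Their recognition depends on the neuronal splicing activators SRRM4 (also called nSR100) and SRRM3, together with general factors such as SRSF11 and RNPS1, and is further shaped by RBFOX, NOVA, PTB, ELAVL, CELF and QKI proteins that bind near the splice sites.

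All 12 libraries were stranded, polyadenylated RNA libraries from wild-type NMRI mice, with 2 libraries in each of 6 groups. The tissue groups were neocortex at postnatal day 10 (P10) and at postnatal day 49 (P49), with no drug. Cultures came from embryonic neocortex (E16.5), dissociated and grown for 14 days; they hold whatever cell types survive, and the animals or dishes behind each library are not stated in the labels. The control cultures had no drug. The first DRB group had DRB, an inhibitor of transcription elongation by RNA polymerase II, for 2 hours at 50 uM. A second experiment held a further DRB group with the same dose and time, and a group with DRB plus bicuculline, a GABA-A receptor blocker that raises network activity, for 1 hour at 20 uM. Names of columns beside the counts of the first DRB group carry the letters TTX, and whether tetrodotoxin was given is not stated in the labels. The counts taken for the second DRB group stand under names that begin with ctl, and were assigned to it because no other group remained for that table. The series was set up to follow intron retention across age, transcription block and activity, and microexon inclusion was read here from the same junction counts. P-values measure only the spread between these libraries, which may be technical.

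Spliced reads numbered from 49559425 to 73900724 per library in the first experiment and from 62423801 to 69852903 in the second. CPM are spliced reads of a gene scaled to the library's total, adjusted by edgeR's TMM factors. The experiments were scaled separately. Summed CPM of 6 neuron marker genes ranged from 4304 to 4323 at P10, from 5460 to 5503 at P49 and from 1928 to 1984 in control cultures. They ranged from 3672 to 3818 in the first DRB group and from 3406 to 3600 over the second experiment. Summed CPM of 9 oligodendrocyte markers were 991 to 1147 at P10, 2917 to 2995 at P49 and 72.5 to 164 in all cultures. In bulk RNA, fewer cells of a type and less RNA per cell cannot be told apart. All 6 neuron markers were detected in every group.

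The sequences below are coding microexons whose inclusion differed by age, or that are among the shortest, with 24 bases of exon on each side as they stand in the spliced transcript. They come from GENCODE mouse release 21 transcripts on mm10 (GRCm38), and capitals mark the microexon. The set spans a 3 nt exon of Cyth2, an exchange factor for Arf GTPases (chr7:45808730-45808732, minus strand), and 6 nt exons of Nsmf, a protein that signals from synapse to nucleus (chr2:25057965-25057970, plus strand), of Reln, the secreted guide of cortical layering (chr5:21891562-21891567, minus strand), and of Apbb1, an adaptor of the amyloid precursor protein (chr7:105565946-105565951, minus strand). Then follow Kif3a, a kinesin motor subunit (chr11:53590717-53590725, plus strand), Ank2, the ankyrin that ties membrane proteins to spectrin (chr3:126979256-126979267, minus strand), Kcnma1, the pore subunit of the BK potassium channel (chr14:23449200-23449211, minus strand), Arhgap44, a GTPase-activating protein (chr11:65012907-65012924, minus strand), Ptprf, a receptor phosphatase of synaptic adhesion (chr4:118252076-118252093, minus strand), and Rab3gap1, the catalytic subunit of the GTPase-activating complex for Rab3 (chr1:127941594-127941614, plus strand).
Cyth2 3 nt: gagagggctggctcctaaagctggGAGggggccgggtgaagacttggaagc
Nsmf 6 nt: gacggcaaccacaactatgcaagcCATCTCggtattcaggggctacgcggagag
Reln 6 nt: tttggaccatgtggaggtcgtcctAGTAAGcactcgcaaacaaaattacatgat
Apbb1 6 nt: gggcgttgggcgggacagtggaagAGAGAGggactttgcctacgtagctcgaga
Kif3a 9 nt: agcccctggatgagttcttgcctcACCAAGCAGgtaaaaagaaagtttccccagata
Ank2 12 nt: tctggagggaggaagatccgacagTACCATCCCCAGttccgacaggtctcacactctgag
Kcnma1 12 nt: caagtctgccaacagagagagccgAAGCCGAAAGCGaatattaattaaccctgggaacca
Arhgap44 18 nt: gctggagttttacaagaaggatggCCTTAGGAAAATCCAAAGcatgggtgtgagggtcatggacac
Ptprf 18 nt: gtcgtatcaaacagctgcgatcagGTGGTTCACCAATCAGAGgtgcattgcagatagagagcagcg
Rab3gap1 21 nt: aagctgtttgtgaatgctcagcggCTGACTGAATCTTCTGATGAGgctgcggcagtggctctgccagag

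A second set shows a 27 nt exon that recurs in 3 paralogous receptor phosphatases, Ptprd (chr4:76095520-76095546), Ptprf (chr4:118227819-118227845) and Ptprs (chr17:56427791-56427817), all on the minus strand. It was picked after the values were seen. The Ptprd and Ptprs exons matched at 19 of 27 bases (70.4%), the Ptprf and Ptprs exons at 14 (51.9%) and the Ptprd and Ptprf exons at 13 (48.1%).
Ptprd 27 nt: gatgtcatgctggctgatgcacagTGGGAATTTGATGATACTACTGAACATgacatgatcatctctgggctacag
Ptprf 27 nt: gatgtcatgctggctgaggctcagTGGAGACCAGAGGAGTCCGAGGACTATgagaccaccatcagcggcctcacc
Ptprs 27 nt: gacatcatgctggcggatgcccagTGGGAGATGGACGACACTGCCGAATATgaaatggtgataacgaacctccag

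The members' length was a multiple of 3 in 159 of 228 (69.7%), against 39.2% of the 4324 cassette exons of 28 to 500 nt. Of the 228, GENCODE annotated 86 (37.7%) as coding, 9 as untranslated or partly coding and 12 in noncoding transcripts, while 121 (53.1%) were in no annotated transcript. Among the 86 coding members 77 (89.5%) were multiples of 3, against 68.2% of the 484 longer coding cassette exons. Among the 121 unannotated members 70 (57.9%) were. The median length was 21 nt. The lengths 12, 24 and 27 nt held 22, 31 and 25 members, and 10 members were of 3 to 6 nt. These shares are descriptions with no test, since length chose the members.

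**Figure D1:**
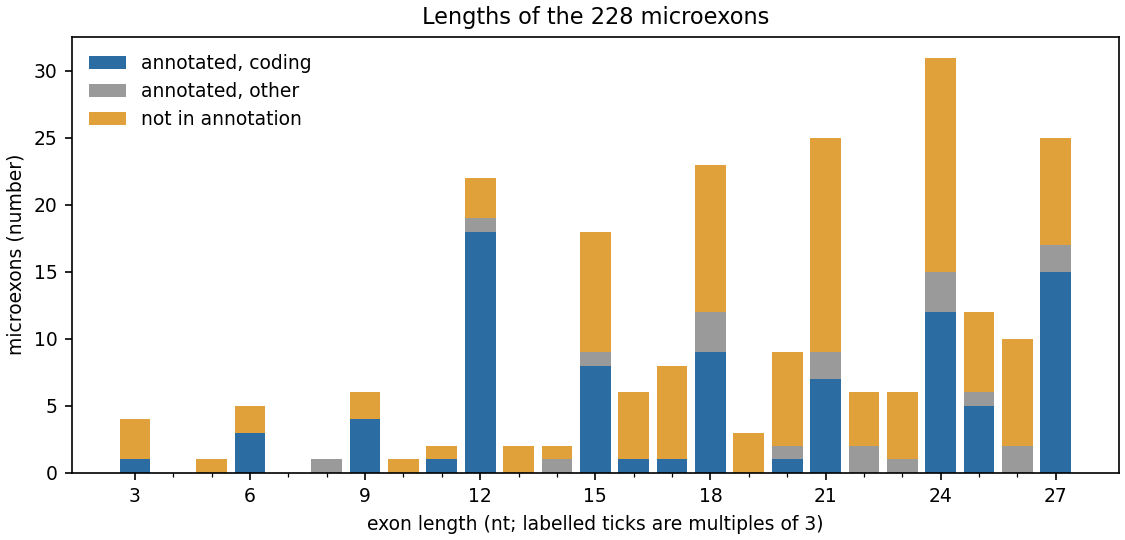
Number of microexons (vertical axis) at each length from 3 to 27 nt (horizontal axis), coloured by GENCODE annotation. Multiples of 3 stand above their neighbours, with 22 exons at 12 nt, 31 at 24 nt and 25 at 27 nt.

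The rule has edges. At the length limit, the 25 members of 27 nt had a median inclusion of 18.5% at P10, 21.9% at P49, 10.5% in control cultures and 13.7% in the first DRB group, and the 10 exons of 28 nt just outside had 16.6%, 16.47%, 7.01% and 11.0%. At the read limit, 23 members had 20 to 24 reads at their weakest junction, and 44 exons with 15 to 19 reads there were left out. There were 4 members of 3 nt and 0 exons of 1 or 2 nt. In 56 members a junction reached 20 reads only with the reads of a particular group. In 54 (23.7%) the 2 inclusion junctions differed over 3-fold in reads, so that their mean is a less certain measure. A total of 19 members overlapped another member, and 19 genes held 2 or more. The set is no full list of microexons: of 2202 annotated internal exons of 3 to 27 nt, 882 had 20 reads at both inclusion junctions, and only 119 of these had their skip junction in the table.

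Inclusion is given as a percent: the mean of the 2 inclusion junctions over that mean plus the skip count. Median inclusion over the members with at least 10 inclusion plus skip reads was 14.4% and 14.3% in the P10 libraries, 16.4% and 17.8% at P49, 7.56% and 7.85% in control cultures, 11.8% and 11.6% in the first DRB group, 9.25% and 9.40% in the second DRB group and 10.4% and 9.84% with bicuculline. Tissue was thus higher than any culture, and the control cultures were lowest, with no overlap between those groups. For exons of 28 to 500 nt the medians ran from 3.90% to 6.63% over the same libraries, and for them the tissue libraries, at 4.13% to 5.11%, lay between the control cultures and the drug-treated ones.

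Individual members covered the whole scale. Of 216 members with 10 reads in each of the 8 libraries of the first experiment, 76 stayed under 10% in all 8, 6 stayed over 90% and 61 stayed between. The 12 nt exon of Dnm1, the GTPase that pinches off synaptic vesicles, was among the highest, at 98.2% to 99.7% in all 12 libraries. The means of the 4 groups spanned 10 points or more in 108 of the 216 and 30 points or more in 35, while 79 spanned under 5 points. The median span was 9.98 points, and the median difference between libraries of a group was 1.41 points. The lowest of the 4 group means was the control cultures' in 126 of the 216 members, and the highest was P49's in 97 and P10's in 61.

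**Figure D2:**
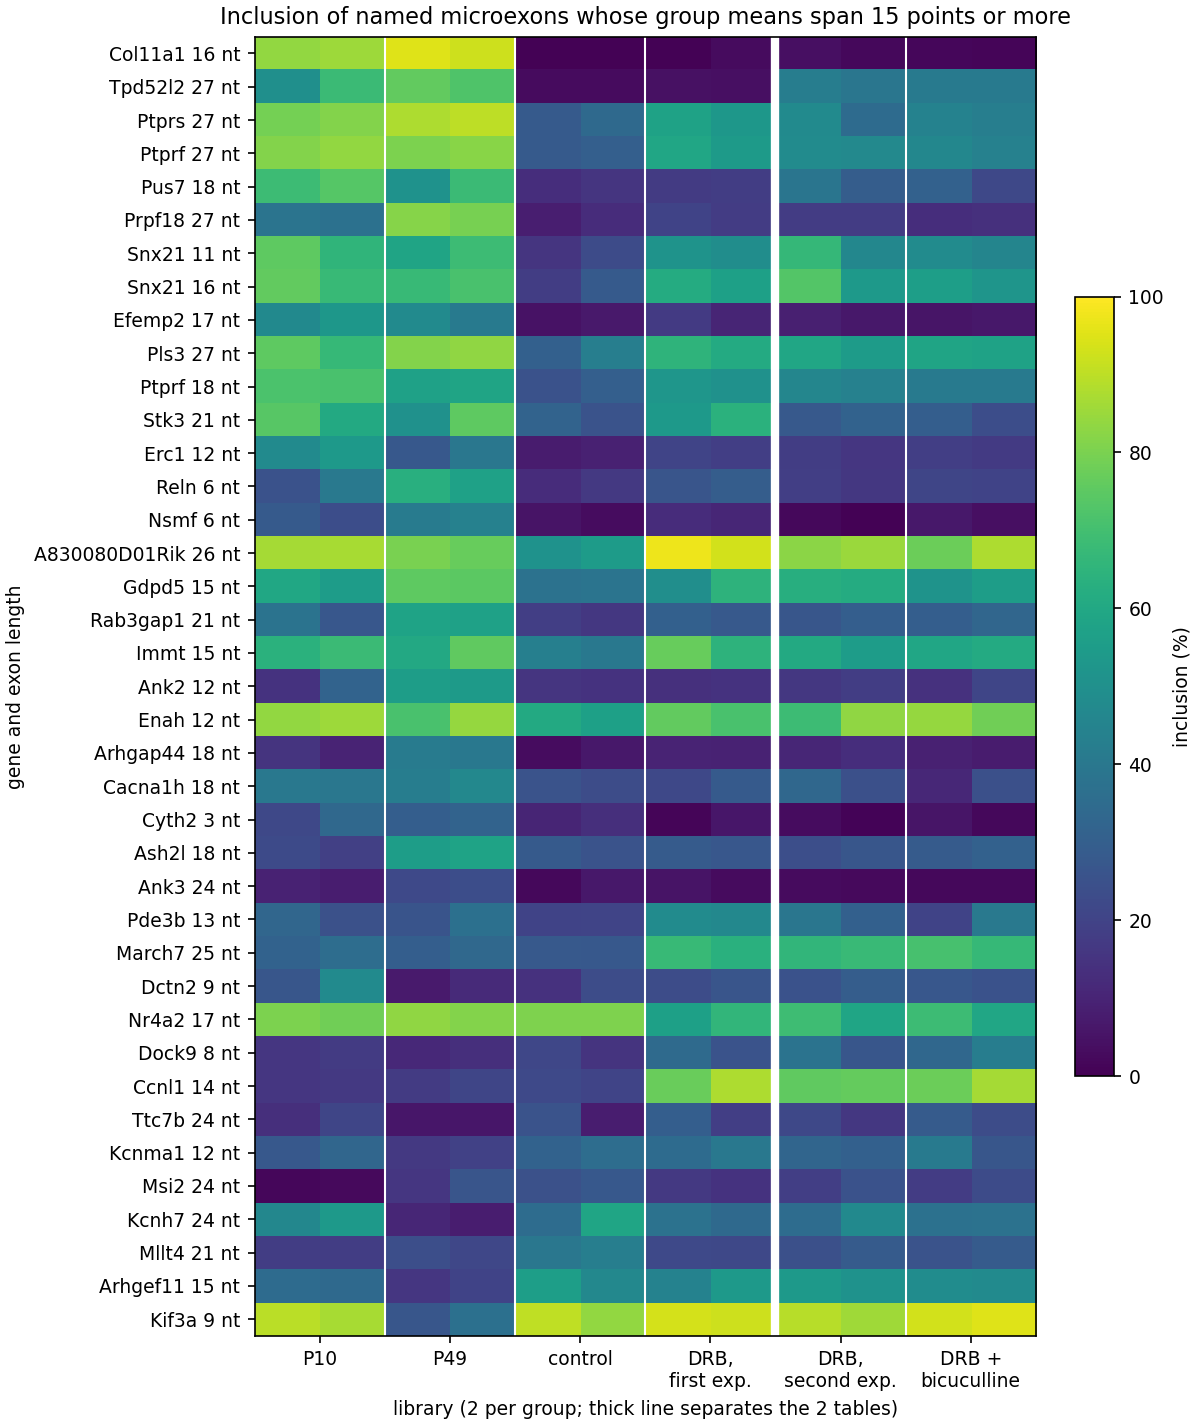
Inclusion (colour, percent) of the 39 named microexons whose group means span 15 points or more, in each of the 12 libraries, sorted by control cultures minus the mean of the tissues. Most rows are darker in the control cultures than in tissue, with Kif3a, Kcnh7, Mllt4 and Msi2 among the exceptions at the bottom.

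With age, more microexons gained than lost inclusion in the neocortex. The exons of Ash2l, Prpf18, Arhgap44 and Rab3gap1 rose by 24.9 to 42.9 points from P10 to P49, while those of Kif3a and Kcnh7 fell by 40.7 to 56.5 points. In edgeR's quasi-likelihood test on inclusion and skip reads, with Benjamini-Hochberg adjustment over 4342 cassette exons and calls at an adjusted p of 0.05, 39 of 218 members tested were higher at P49 (17.9%) and 17 were lower (7.8%). Among all cassette exons 9.47% were higher and 3.45% lower, and among 321 longer coding exons in whole codons 16.8% were higher and 6.23% lower. Of 77 coding members in whole codons 17 were higher (22.1%) and 5 lower (6.49%). Members that reached 20 reads at each junction without any 1 group gave 31 of 167 higher (18.6%) and 13 lower (7.78%). The differences between these shares were not tested. The median log2 ratio of inclusion to skip reads was 0.17 over the members and 0.22 over all exons. Of the calls, 19 increases and 9 decreases were of 10 points or more.

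The largest increase was in Prpf18, a pre-mRNA splicing factor, whose 27 nt exon lies in a noncoding transcript of the gene (chr2:4648097-4648123, minus strand). Its inclusion was 38.3% and 37.4% in the P10 libraries and 81.8% and 79.6% in the P49 libraries, a log2 ratio of 2.78 ± 0.26 (SE, n = 2 per group; edgeR adjusted p = 1.2e-06). An unannotated 18 nt exon of Ash2l, a core subunit of the MLL histone methyltransferase complexes, was included at 22.3% and 19.01% at P10 and at 55.6% and 58.1% at P49 (chr8:25830375-25830392, minus strand; log2 ratio 2.35 ± 0.17, SE; edgeR adjusted p = 1.4e-07). Both exons had inclusion junctions of nearly equal depth, and in both the P49 libraries lay far above the P10 libraries. The 18 nt exon of Arhgap44 was at 14.9% and 9.80% at P10 and at 41.6% and 40.2% at P49 (log2 ratio 2.29 ± 0.21, SE; edgeR adjusted p = 1.2e-06). The 21 nt exon of Rab3gap1 was at 38.2% and 27.3% at P10 and at 58.2% and 57.2% at P49 (log2 ratio 1.49 ± 0.19, SE; edgeR adjusted p = 4.7e-05). An unannotated 24 nt exon of Msi2, a Musashi RNA-binding protein, went from 1.70% and 2.68% to 16% and 26.3% (edgeR adjusted p = 0.0002). None of these 5 calls was lost under any alternative tried.

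Among decreases, the 9 nt exon of Kif3a was in most transcripts at P10, with 89.5% and 87.0%, and in a minority at P49, with 26.7% and 36.9% (log2 ratio -3.93 ± 0.41, SE, n = 2 per group; edgeR adjusted p = 4.2e-06). Its inclusion junctions were unequal, with 139 and 522 reads over the 8 libraries against 123 skip reads. An unannotated 24 nt exon of Kcnh7, a voltage-gated potassium channel, was at 46.1% and 54.1% at P10 and at 10.6% and 8.14% at P49 (chr2:62845315-62845338, minus strand; log2 ratio -3.15 ± 0.35, SE; edgeR adjusted p = 9.3e-06). The groups did not overlap in either gene, and both calls held under every alternative. The 18 nt exon of Ptprf was at 71.8% and 71.3% at P10 and 57.2% and 58.5% at P49 (edgeR adjusted p = 0.0066), a call that held with each library left out but not under DESeq2 (adjusted p = 0.3), limma (0.12), edgeR on only the 2 groups (0.07) or edgeR with the smaller junction (0.088).

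Other age-related calls were weaker. The 12 nt exon of Ank2 was at 14.8% and 31.6% at P10, so that the P10 libraries differed widely, and at 55.6% and 54.7% at P49 (edgeR adjusted p = 0.0091, and 0.13 without P10 library 1). The 6 nt exon of Nsmf was at 28.2% and 23.6% at P10 and at 41.4% and 44% at P49 (edgeR adjusted p = 0.024). Its call was lost in 7 of 11 alternatives, among them without P10 library 2, P49 library 1 or P49 library 2. The Nsmf inclusion junctions held 55 and 229 reads over the 8 libraries. At the weaker junction reads numbered 14 and 15 at P10 and 5 and 10 at P49. The 12 nt exon of Kcnma1 was at 27.7% and 33.0% at P10 and at 16.52% and 19.2% at P49 (edgeR adjusted p = 0.037, and 0.056 to 0.26 when any of the 4 libraries was left out). For the 6 nt exon of Reln, with 25% and 40.6% at P10 and 63.0% and 57.1% at P49, the edgeR adjusted p was 0.085; control cultures, at 12.7% and 16.7%, were lower than P49 (edgeR adjusted p = 0.0023, and 0.013 to 0.02 with any of the 4 libraries left out). The Reln exon was chosen after its values were seen.

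By the role of the host gene, membrane traffic and release had 3 of 6 tested exons higher at P49 and 0 lower. Beside Rab3gap1 these were the 12 nt exon of Cadps, a priming factor of dense-core vesicles (1.74% and 1.89% against 4.88% and 4.26% at P49, edgeR adjusted p = 0.0026, and 0.69 with the smaller inclusion junction), and the 9 nt exon of Madd, a Rab3 exchange factor. The Madd exon was at 15.2% and 14.7% at P10 and 31.6% and 22.3% at P49 (edgeR adjusted p = 0.019). Its call was lost in 7 of 11 alternatives, among them without P10 library 1, P10 library 2 or P49 library 1. The Madd inclusion junctions held 370 and 69 reads over the 8 libraries. At the weaker junction reads numbered 13 and 8 at P10 and 15 and 10 at P49. Adhesion and surface receptors had 2 of 14 higher and 2 lower. The 12 nt exon of Robo2, a receptor for Slit guidance cues, rose from 90.2% and 89.2% to 98.7% and 97.9% (edgeR adjusted p = 5.5e-05).

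The 27 nt exon of Ptprs was at 79.1% and 81.6% at P10 and 87.7% and 89.97% at P49 (edgeR adjusted p = 0.0077, and 0.055 and 0.054 without P10 library 1 or P49 library 2). Its paralogue in Ptprf was at 81.3% and 83.9% and at 80.3% and 82.4%, with overlapping groups. Cytoskeleton and scaffold genes had 2 of 6 higher and 0 lower, the 12 nt exon of Ank2 and the 24 nt exon of Ank3, which was at 9.47% and 7.85% at P10 and 22.0% and 23.6% at P49 (edgeR adjusted p = 0.0025; 0.11 with DESeq2). Kinases and GTPase regulators had 2 of 5 higher and 1 lower. Channels and transporters had 2 of 4 higher and 1 lower, and transcription, chromatin and RNA genes had 0 of 3 in either direction. The 24 nt exon of Kcnma1, 1 of the 2 higher channel exons, is a member only with the P49 reads. Its inclusion junctions held 23 and 8 reads and 19 and 8 reads at P49, against 0 and 1 each at P10. The rule of choice thus favoured this call, which is no independent sign of a rise with age. The host gene lists hold few members each and are described by counts alone. The counts stand beside 17.9% higher and 7.8% lower over all members and 9.47% and 3.45% over all cassette exons.

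RNA levels of cell type markers in the tissue differed with age too, where 28.4% of all 15196 genes were called higher at P49 and 29% lower. All 9 oligodendrocyte markers were higher at P49 (median log2 change 1.63), 4 of 6 neuron markers were higher and 2 lower, and 3 of 5 fibroblast and 4 of 5 oligodendrocyte precursor markers were lower. Astrocyte markers were higher in 3 and lower in 3 of 8, endothelial and mural markers higher in 2 and lower in 4 of 7, and microglia markers higher in 1 and lower in 1 of 9; their part in the inclusion differences was not tested.

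**Figure D3:**
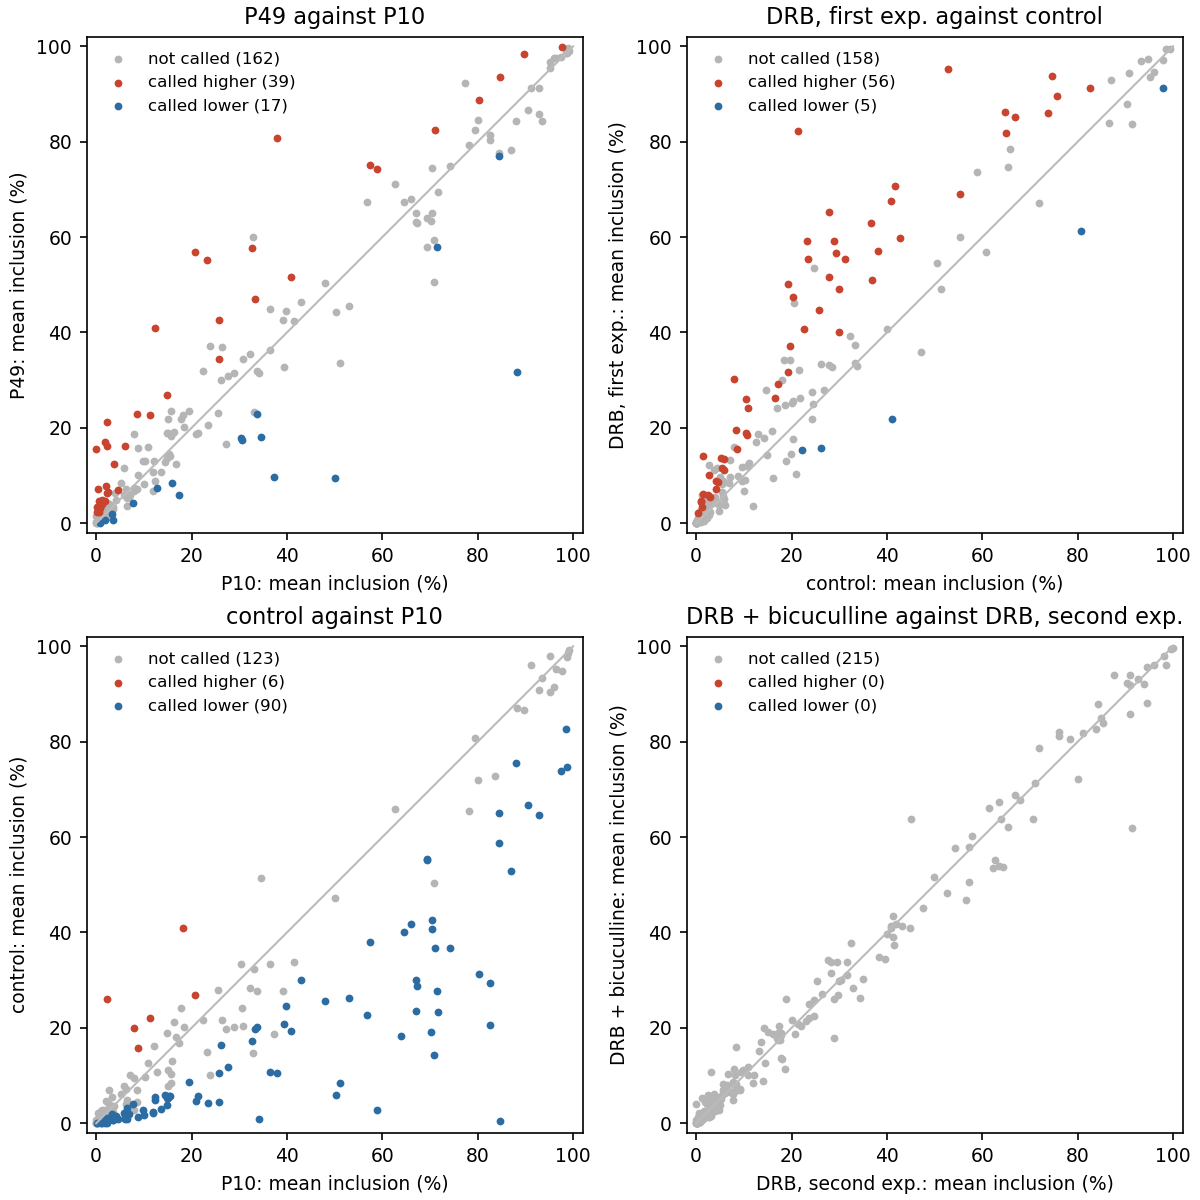
Mean inclusion (percent, n = 2 libraries per group) of each member in 1 group against another, for 4 comparisons; red and blue mark exons called higher and lower by edgeR. Points under the diagonal dominate for control cultures against P10, points over it for DRB against control, and none are called for bicuculline.

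Far more microexons were lower than higher in control cultures against tissue. Among the lower were the Col11a1 exon of 16 nt, which fell by 84.0 points against P10, and the 27 nt exons of Ptprf and Ptprs, which fell by 53.3 and 49.0 points. Against P10, 90 of 219 members tested were lower in control cultures (41.1%) and 6 were higher (2.74%), while among all 4298 cassette exons 13% were lower and 6.68% higher. Against P49, 104 of 219 were lower (47.5%) and 8 higher (3.65%), with 19.2% and 7.19% among all 4283 exons. These comparisons share the control libraries. Against P10, the median log2 ratio was -0.91 over the members and -0.05 over all exons. Of 76 coding members in whole codons 37 were lower (48.7%), against 26.9% of 320 longer coding exons in whole codons. Members that reached 20 reads without any particular group gave 83 of 168 lower, and those whose inclusion junctions were within 3-fold gave 71 of 167. Against P49, members that reached 20 reads without any particular group gave 90 of 169 lower and 7 higher. The difference in share between members and other exons was not tested.

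**Figure D4:**
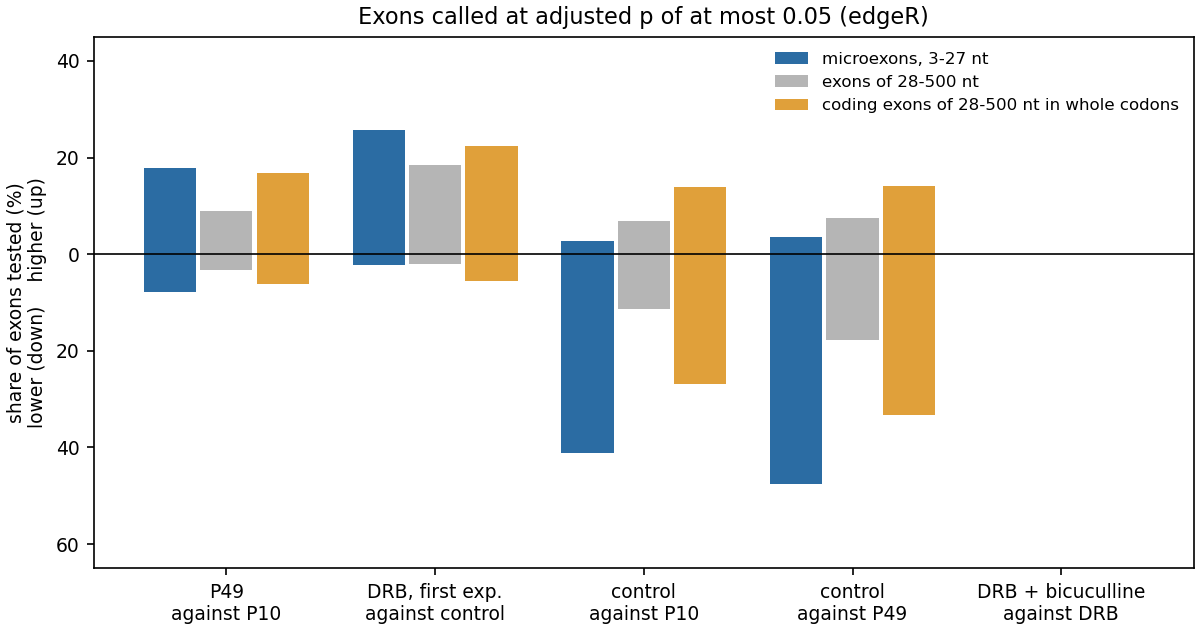
Percent of tested exons called higher (up) or lower (down) by edgeR in each of 5 comparisons, for microexons, all cassette exons of 28 to 500 nt, and coding exons of that length in whole codons. Microexons stand apart most in the comparisons of control cultures with tissue, where 41.1% and 47.5% were lower.

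In Col11a1, a fibrillar collagen chain, inclusion of the 16 nt exon (chr3:114138171-114138186, plus strand) was 84.0% and 85.2% at P10, 95.1% and 92.3% at P49 and 0.627% and 0.486% in control cultures, and it stayed at or under 4.04% in all 6 drug-treated libraries (edgeR adjusted p = 8.4e-11 for control cultures against P10). The tissues and the cultures used this exon in nearly opposite ways. The 27 nt exon of Ptprf was at 81.3% and 83.9% at P10, 80.3% and 82.4% at P49 and 28.3% and 30.3% in control cultures (log2 ratio to P10 -3.52 ± 0.16, SE; edgeR adjusted p = 3.0e-10). The Ptprs exon was at 79.1% and 81.6% at P10 and at 28.2% and 34.3% in control cultures (edgeR adjusted p = 9.4e-09). The Ptprd exon, the closest to Ptprs in sequence, stayed high in control cultures, at 75.2% and 76.0%, against 91.5% and 84.6% at P10 (log2 ratio -1.29 ± 0.38, SE; edgeR adjusted p = 0.022, and 0.25, 0.11 and 0.089 without P10 library 1, control library 1 or control library 2). The Ptprf exon of 18 nt fell from 71.8% and 71.3% to 25.2% and 30.3% (edgeR adjusted p = 1.5e-08).

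The next 6 exons, of differing host genes, were also lower in control cultures. In Erc1, a scaffold of the presynaptic active zone, the 12 nt exon was at 47.8% and 54.3% at P10 and 7.56% and 9.14% in control cultures (edgeR adjusted p = 5.5e-07). In Kdm1a, the histone demethylase LSD1, the 12 nt exon was at 13.8% and 13.4% at P10, 10.9% and 10.4% at P49 and 2.44% and 3.503% in control cultures (edgeR adjusted p = 3.5e-06 against P10). In Apbb1 the 6 nt exon was at 13.8% and 10.1% at P10 and 2.66% and 1.58% in control cultures (edgeR adjusted p = 0.0001). The 6 nt exon of Nsmf was at 5.36% and 3.38% in control cultures, under the 28.2% and 23.6% of P10 (edgeR adjusted p = 2.1e-05). The 3 nt exon of Cyth2 was at 21.7% and 33.7% at P10 and 10.3% and 13.3% in control cultures (edgeR adjusted p = 0.019, and 0.22, 0.16 and 0.069 without P10 library 2, control library 1 or control library 2); it too was chosen after its values were seen. None of these groups overlapped, but the rule of choice favoured the Apbb1 and Cyth2 calls. The Apbb1 exon is a member only with the P10 reads, and the Cyth2 exon only with the reads of both P10 and P49. These calls are thus no independent sign of lower inclusion in control cultures. The inclusion junctions held 207 and 36 reads for Apbb1 and 189 and 24 for Cyth2 over the 8 libraries. The 18 nt exon of Pus7, a pseudouridine synthase, was at 68.4% and 73.5% at P10 and 13.3% and 15.3% in control cultures (edgeR adjusted p = 3.1e-07).

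By host gene role, control cultures against P10 gave 3 of 6 exons lower for membrane traffic, 6 of 14 for adhesion, 1 of 6 for the cytoskeleton, 2 of 5 for kinases and GTPase regulators, 2 of 3 for transcription, chromatin and RNA, and 1 of 4 for channels, where 41.1% of all members and 13% of all cassette exons were lower. The Apbb1 exon, a member only with the P10 reads, is 1 of the 2 in the transcription list. In the cytoskeleton list 1 was higher, the 12 nt exon of Ank3. That exon was at 8.52% and 7.37% at P10 and at 11.4% and 28.4% in control cultures (edgeR adjusted p = 0.02). Its call was lost in 5 of 11 alternatives, among them without control library 2 or P10 library 2. The Ank3 inclusion junctions held 30 and 157 reads over the 8 libraries. At the weaker junction reads numbered 6 and 5 at P10 and 0 and 4 in control cultures.

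A few microexons went the other way. The 21 nt exon of Mllt4, which encodes the nectin-binding adaptor afadin (chr17:13848355-13848375, plus strand), was at 18.3% and 18.01% at P10 and 39.5% and 42.6% in control cultures (log2 ratio 1.65 ± 0.22, SE; edgeR adjusted p = 3.2e-05). The 24 nt exon of Msi2 was at 1.70% and 2.68% at P10 and 24.7% and 27.6% in control cultures (edgeR adjusted p = 9.5e-06), near its P49 level. The 21 nt exon of Cltc, the clathrin heavy chain, was at 12.3% and 10.1% at P10, 23.01% and 22.5% at P49 and 22.0% and 22.3% in control cultures (edgeR adjusted p = 0.00015 for control cultures against P10). Culture, age and cell type marker levels differ together between these groups, and their parts cannot be told apart. Of all 15196 genes, 37.2% were called higher in control cultures than at P10 and 37.2% lower. In control cultures 5 of 6 neuron markers were lower than at P10 (median log2 change -1.32). So were 9 of 9 oligodendrocyte, 5 of 5 fibroblast, 6 of 9 microglia and 3 of 5 oligodendrocyte precursor markers. Astrocyte markers were higher in 5 and lower in 3 of 8, and endothelial and mural markers higher in 2 and lower in 4 of 7, with a summed CPM of 744 to 882 in control cultures and 337 to 339 at P10.

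With DRB, most microexons that changed gained inclusion. The exons of March7 and Ptprf rose by 37.5 and 27.4 points against control cultures, while the Mllt4 exon fell by 19.1 points. In edgeR 56 of 219 members were higher (25.6%) and 5 lower (2.28%), where 18.9% of all 4334 cassette exons were higher and 2.08% lower. The median log2 ratio was 0.56 over the members and 0.38 over all exons, and 36 of the increases were of 10 points or more. Of 76 coding members in whole codons 26 were higher (34.2%), against 22.4% of 322 longer coding exons of that kind. Members that reached 20 reads at each junction without any 1 group gave 53 of 170 higher (31.2%) and 5 lower (2.94%). These differences in share from the other cassette exons were not tested. The values are shares among the transcripts present after 2 hours of DRB.

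The 25 nt exon of March7, an E3 ubiquitin ligase gene (chr2:60247488-60247512, plus strand), was at 27.9% and 27.7% in control cultures and 67.3% and 63.4% in the first DRB group (log2 ratio 2.28 ± 0.26, SE, n = 2 per group; edgeR adjusted p = 8.8e-06). In the second experiment it was at 66.0% and 67.9% with DRB and 70.7% and 66.8% with DRB plus bicuculline. All 6 drug-treated libraries thus lay far above the controls and above the 30.1% to 35.8% of the tissues. This exon is coding and its length is no multiple of 3. The 27 nt exon of Ptprf went from 28.3% and 30.3% to 59.0% and 54.3% (log2 ratio 1.65 ± 0.15, SE; edgeR adjusted p = 1.4e-06), that of Ptprs from 28.2% and 34.3% to 57.5% and 53.1% (log2 ratio 1.43 ± 0.18, SE; edgeR adjusted p = 2.3e-05), and that of Ptprd from 75.2% and 76.0% to 88.6% and 90.7% (log2 ratio 1.48 ± 0.36, SE; edgeR adjusted p = 0.006, and 0.055 and 0.098 without control library 1 or DRB library 2). The 3 paralogues gave log2 ratios of 1.43 to 1.65, with Ptprf and Ptprs starting from overlapping levels and Ptprd from a higher level.

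The 18 nt exon of Ptprf rose from 25.2% and 30.3% to 52.6% and 50.7% (edgeR adjusted p = 8.1e-06). The 27 nt exon of Pls3, an actin-bundling plastin, went from 30.9% and 42.6% to 64.9% and 61.1% (edgeR adjusted p = 6.7e-05), and the 15 nt exon of Immt, which organises mitochondrial cristae, from 43.3% and 40.1% to 76.8% and 64.6% (edgeR adjusted p = 0.0013). An unannotated 26 nt exon of A830080D01Rik went from 50.8% and 54.9% to 97.4% and 93.2% (edgeR adjusted p = 3.4e-06), and an unannotated 16 nt exon of Snx21, a sorting nexin, from 17.99% and 28.5% to 61.4% and 56.9% (edgeR adjusted p = 0.00073). The Snx21 exon shares its start with members of 11 and 21 nt and so is not independent of them. None of these calls was lost under an alternative. For the 21 nt exon of Stk3, a Hippo pathway kinase, with 31.9% and 25.8% in control cultures and 54.2% and 63.96% with DRB, the edgeR adjusted p was 0.0071, and 0.1 and 0.076 without DRB library 2 or control library 2.

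The largest difference in inclusion was in Ccnl1, a cyclin involved in splicing, whose 14 nt exon was at 22.0% and 20.5% in control cultures and 77.0% and 87.6% with DRB (edgeR adjusted p = 6.3e-07). Its inclusion junctions were very unequal, with 29 and 558 reads over 8 libraries. Skip reads numbered 110 and 120 in control cultures and 17 and 10 with DRB, and reads at the stronger junction 58 and 60 against 112 and 138. With the smaller junction alone the edgeR adjusted p was 0.075, so the call rests on the skip reads and the stronger junction.

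The 5 members lower with DRB were in Mllt4, Cltc, Msi2, Nr4a2 and Eif2s3y. Mllt4 went from 39.5% and 42.6% to 22.1% and 21.7% (log2 ratio -1.31 ± 0.22, SE; edgeR adjusted p = 0.00036), close to its tissue level, and this call held under every alternative. Cltc went from 22.0% and 22.3% to 16.2% and 14.6% (edgeR adjusted p = 0.017, and 0.066 to 0.17 with any of the 4 libraries left out). Msi2 went from 24.7% and 27.6% to 16.7% and 14.7% (edgeR adjusted p = 0.035, and 0.085 to 0.24 with any of the 4 left out). In Nr4a2, an immediate early nuclear receptor gene, and Eif2s3y, a translation initiation factor subunit, the inclusion junctions differed by 34.4-fold and 59.4-fold, and with the smaller junction the difference turned to the opposite sign without passing the test.

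By host gene role, DRB against control cultures gave 4 of 13 adhesion exons higher (the Ptprd, Ptprf and Ptprs exons described above), 1 of 6 for membrane traffic (Rab3gap1), 1 of 3 for transcription, chromatin and RNA (Kdm1a), 0 in the other lists, and 0 lower in any list, where 25.6% of all members and 18.9% of all cassette exons were higher. Rab3gap1 went from 18.4% and 16.1% to 30.5% and 28.1% (edgeR adjusted p = 0.0056, and 0.067 and 0.074 without DRB library 1 or control library 2). Kdm1a went from 2.44% and 3.503% to 5.15% and 5.99% (edgeR adjusted p = 0.031, and 0.24, 0.076 and 0.17 without control library 1, DRB library 1 or DRB library 2). Of all 15196 genes, 30% were called higher with DRB and 33.3% lower. These CPM are shares of the spliced reads present after 2 hours of DRB, and a larger share need not mean more RNA. Neuron markers were higher with DRB in 6 of 6 genes (median log2 change 1.02). Oligodendrocyte precursor markers were lower in 5 of 5 (median log2 change -1.22), and 5 of 7 measured endothelial and mural markers were lower and 2 higher. Oligodendrocyte markers were higher in 5 and lower in 2 of 9, astrocyte markers higher in 2 and lower in 4 of 8, fibroblast markers higher in 1 and lower in 3 of 5, and microglia markers higher in 1 of 9; their part in the inclusion differences was not tested.

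The age comparison and the DRB comparison share no libraries. Of 216 members tested in both, 9 were higher at P49 and higher with DRB, which is 23.1% of the P49 list and 16.1% of the DRB list. For all members tested, 25.6% were higher with DRB and 17.9% higher at P49, so these shares are near the background. A further 3 were lower at P49 and higher with DRB. Of 222 members tested in at least 1 of the 4 comparisons of the first experiment, 144 (64.9%) were called in at least 1, against 43.5% of 4457 cassette exons.

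Bicuculline moved no microexon past the test. In edgeR 0 of 215 members were higher and 0 lower, as under DESeq2 and limma, where 0.023% and 0.0691% of all 4341 cassette exons were called. At an unadjusted p under 0.05, 10 members were higher and 3 lower in edgeR, against 3.48% and 2.07% of all exons. The median absolute difference was 1.23 points, 187 of 215 members differed by under 5 points and 4 by 10 points or more, and the median SE of the log2 ratio was 0.40, and in simulated data for this comparison 2-fold changes of the ratio were recovered in 29.7% of cases and 4-fold changes in 57.1%. Many differences of these sizes, and smaller ones, would thus be missed at this depth. These libraries entered the choice of members in no way.

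The members of smallest p were at low inclusion or changed little. An unannotated 20 nt exon of Apmap was at 0.666% and 0.615% with DRB and 2.26% and 2.15% with bicuculline (log2 ratio 1.61 ± 0.50, SE; edgeR adjusted p = 0.39). The 24 nt exon of Sbf1, a myotubularin-family protein, was at 2.51% and 2.53% and at 5.86% and 5.90% (edgeR adjusted p = 0.59), and Ash2l was at 24.2% and 26.6% and at 28.8% and 30.9% (edgeR adjusted p = 0.71). With 2 libraries per group, separate groups are common without any difference, and the Apmap, Sbf1 and Ash2l exons did not pass the adjustment. The exons of largest difference in the other comparisons gave the following. Prpf18 was at 17.93% and 17.96% with DRB and 12.98% and 13.8% with bicuculline (log2 ratio -0.48 ± 0.24, SE; edgeR adjusted p = 0.88), and Kif3a at 89.4% and 85.7% and at 93.0% and 94.9% (1.16 ± 0.60, SE; edgeR adjusted p = 0.88). Ccnl1 was at 75.6% and 76.4% and at 77.4% and 86.4% (edgeR adjusted p = 0.97), and Col11a1 at 4.04% and 2.16% and at 1.75% and 1.25% (edgeR adjusted p = 0.93). None of these 4 exons passed the test.

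The splicing regulators themselves were measured by spliced reads summed over annotated introns, as CPM. Ptbp1 had no such sum, and 25 of 26 regulators were tested. Srrm4 was at 24.9 and 23.8 CPM in the P10 libraries, 22.7 and 23.1 at P49, 17.9 and 18.9 in control cultures and 20.8 and 21.9 in the first DRB group. P49 did not differ from P10 past the test (log2 change -0.09 ± 0.07, SE; edgeR adjusted p = 0.3), control cultures were lower than P10 (log2 change -0.40; edgeR adjusted p = 0.00034) and DRB was higher than control (log2 change 0.21; edgeR adjusted p = 0.026). Srrm3 was at 50.0 and 45.8 CPM at P10, 40.2 and 36.9 at P49, 20.2 and 22.8 in control cultures and 32.1 and 32.5 with DRB. It was lower at P49 than at P10 (log2 change -0.31; edgeR adjusted p = 0.0045), lower in control cultures than at P10 (-1.15; edgeR adjusted p = 8.9e-08) and higher with DRB (0.58; edgeR adjusted p = 6.0e-05).

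Other regulators moved in both directions. Rbfox1 was at 173 CPM (mean; SD 10.5, n = 2) at P10, 234 (SD 6.20) at P49, 47.7 (SD 2.05) in control cultures and 95.02 (SD 1.85) with DRB, and Rbfox3, itself a neuron marker, followed the same order. Qk, which is abundant in glia, was higher in control cultures, at 255 and 241 CPM, than at P10, at 115 and 92.0 (log2 change 1.26; edgeR adjusted p = 7.8e-08), and lower with DRB, at 136 and 147. Over the list, 7 of 25 were higher and 7 lower at P49, where 28.4% and 29% of all 15196 genes were called; 6 were higher and 14 lower in control cultures against P10, where 37.2% and 37.2% were; and 17 were higher and 3 lower with DRB, where 30% and 33.3% were. With bicuculline 0 were called in edgeR, where 0.185% and 0.0284% of 14082 genes were higher and lower. Levels of these genes and inclusion of the microexons were not related by a test.

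**Figure D5:**
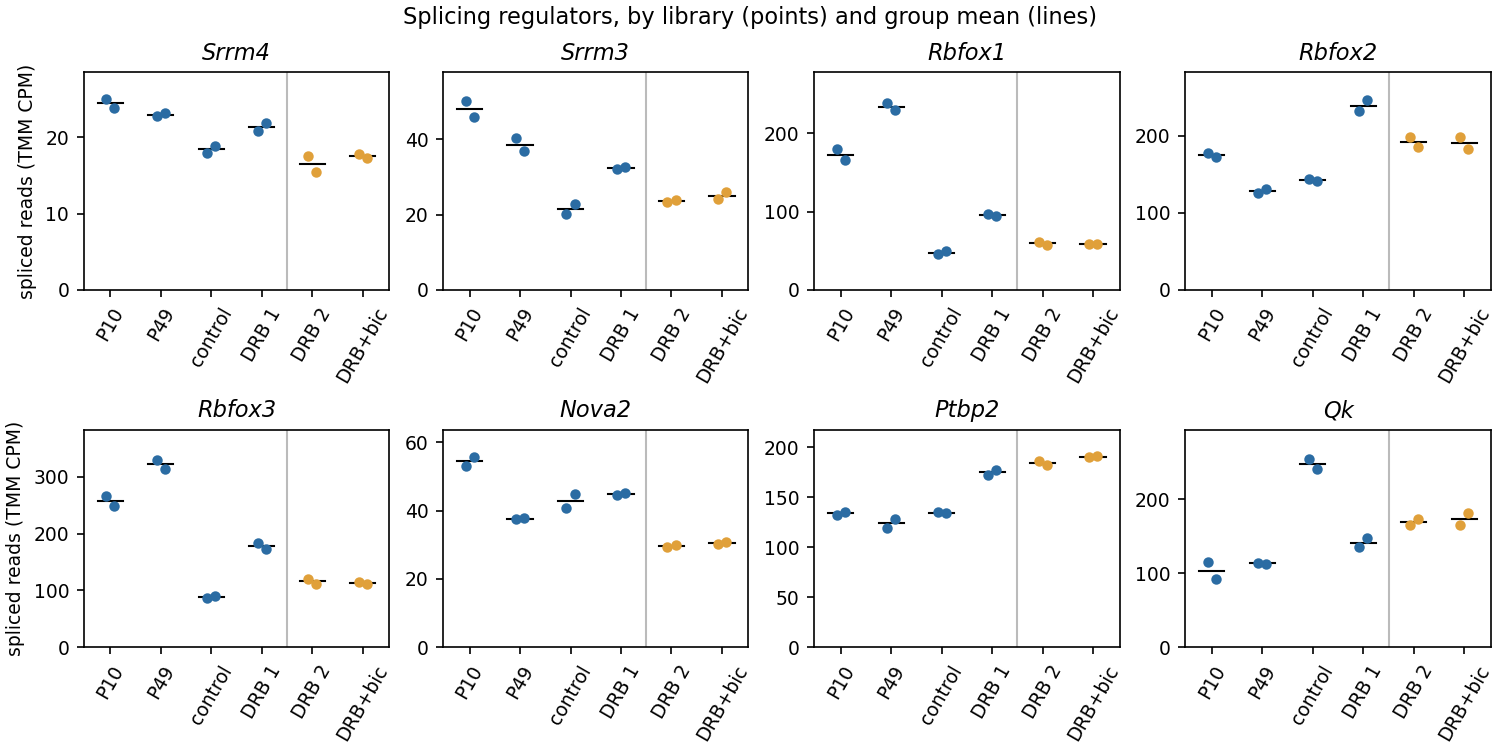
Spliced reads of 8 splicing regulators in CPM, scaled by edgeR's TMM within each table, in each of the 12 libraries (points) with group means (lines). Srrm3, Rbfox1 and Rbfox3 are lowest in the control cultures of the first experiment, whereas Qk is highest there; the grey line separates the 2 tables, which were scaled separately.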

How the data were processed

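The authors deposited tables of introns that give, per library, raw counts of junction reads, per the file headers. The submitters' processing notes name STAR 2.4.0f1 and mm10 (GRCm38); rules for counting and filtering are not stated in the headers or labels. Row values stand 3 columns left of the header names, and columns were read after this shift. P10, first DRB and bicuculline libraries are recognised by column name. The columns of the control, P49 and second DRB groups were matched as what remained, the last of these under names that begin with ctl. Library numbers follow column order. A further 72 columns of per-library values were not used. Both P10 column names carry the same tissue code, so those libraries may come from the same cortex.

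Cassette exons were built from junctions on the same strand and cover lengths up to 500 nt, with the flanking junctions of most reads kept for each exon. The mean of the 2 inclusion counts was rounded and tested with skip counts in edgeR 4.0.16 (R 4.3.3; quasi-likelihood test, 1 baseline per library, at least 10 inclusion plus skip reads in each library compared), over the 8 libraries of the first table or the 4 of the second, with Benjamini-Hochberg adjustment over all cassette exons. Gene sums covered annotated introns (GENCODE mouse release 21), with TMM. DESeq2 1.42.0 and limma 3.58.1 were alternatives, as were other read minimums, the smaller inclusion junction, every junction combination, only the 2 groups compared and each library left out. The fits were tested on simulated data with 200 changed exons. For P49 against P10 (4342 exons) 4-fold changes were recovered in 60% of cases and 2-fold changes in 13.5%. The shares were 49.3% and 9.59% for DRB, and 57.1% and 29.7% for bicuculline (4341 exons). For control cultures they were 64.8% and 17.8% against P10, and 44.3% and 5.19% against P49. Many differences of these sizes would thus be missed in every comparison. Tables were tested separately. Named exons were, per comparison, called members with at least 20 reads per library and the 8 largest differences in each direction, up to 4 exons per host gene list by smallest p for age, and the 5 of smallest p for bicuculline; Ptprd, Cyth2, Reln and Ewsr1 exons were added after their values were seen. Members and lists were chosen with earlier results of these data known. Reads carry no molecular identifiers, so counting error is only part of the error. An exon among the adhesion genes is counted in its list but not reported here.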

Additional observations from a re-analysis of the deposited data

How the results depend on the processing

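In each of the 4 comparisons of the first experiment, the direction with more called members was the same wherever both counts are given below. The numbers of members called depended on the test. Shares of all cassette exons under these alternatives are not given, so the counts show direction and no excess over the background. With the smaller inclusion junction, 20 members were higher and 5 lower at P49 against P10, 31 higher and 2 lower with DRB, 3 higher in control cultures against P10 and 4 higher against P49. DESeq2 gave 15 higher and 2 lower for P49 against P10, 24 and 1 for DRB, 3 higher and 54 lower for control cultures against P10, and 5 higher for control cultures against P49. Limma gave 20 and 3 for P49 against P10 and 37 and 2 for DRB, and a fit of only the 2 groups gave 23 and 8 for P49 against P10. Leaving out each library in turn gave 27 to 34 higher and 10 to 14 lower for P49 against P10, 35 to 40 and 1 to 2 for DRB, 3 to 5 higher and 66 to 78 lower for control cultures against P10, and 4 to 8 higher and 85 to 97 lower against P49. In these fits the lone library of a group is assumed to vary like the others. Counts of regulators stayed within 1.5-fold, and bicuculline gave 0 calls in every alternative, the replicate block on the letters in column names included. Over genes, the deviations of same-lettered libraries correlated at r = 0.086, so the letters were not taken as pairs. No paired analysis was possible because the columns of the first table carry no replicate number.

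Of 131 called results for named exons, 70 were called in all of their alternatives. DESeq2 lost 54, limma 42, the smaller junction 40 and the fit of only the 2 groups 19. Signs turned in 3 cases, all with the smaller junction and all without passing the test: Zfp511 for P49 against P10 (log2 ratio 0.38), and Nr4a2 (4.24) and Eif2s3y (0.14) for DRB. The cause of these changes was not tested. Depth limits low exons: with 10 reads a library, small differences in inclusion cannot be seen.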

Other observations

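The DRB groups of the 2 experiments had the same stated dose and time, and their inclusion is set side by side here without a test, since the tables are separate. Over 216 members the median difference, second minus first, was -0.17 points and the median absolute difference 1.84 points. Differences reached 10 points in 20 members and 20 points in 4. The 27 nt coding exon of Tpd52l2, a tumor protein D52 family gene (chr2:181510504-181510530, plus strand), was at 2.95% and 2.74% in control cultures and 4.35% and 4.10% in the first DRB group, against 42.5% and 39.1% in the second DRB group and 41.1% and 40.7% with bicuculline. In tissue it was at 49.8% and 68.2% at P10 and 75.9% and 72.6% at P49. The 21 nt exon of Stk3 was at 54.2% and 63.96% in the first DRB group and at 28.1% and 31.2% in the second, near the 31.9% and 25.8% of the control cultures of the first experiment. Inadl (20 nt) differed by -26.0 points and Vdac3 (3 nt) by -25.2 points. These 4 exons were singled out after their values were seen.

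Some members are nested versions of the same exon and moved together by construction. Ewsr1, an RNA-binding protein gene, has exons of 15 and 18 nt with a shared start. The 18 nt form was at 41.3% and 40.4% at P10, 52.2% and 50.95% at P49 and 19.3% and 19.3% in control cultures, and the 15 nt form at 26.2% and 25.4%, 35.1% and 33.8%, and 10.8% and 10.5%.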
